A study of Mus musculus with 10 samples.

Results

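DNA methylation at imprinted genes that lie inside other genes is described in spermatogonia of mouse pups. The 5 nested genes and their hosts are Mcts2 in H13, Nap1l5 in Herc3, Zrsr1 in Commd1, Peg13 in Trappc9 and Nnat in Blcap, taken as a list of named genes. All cytosines of CpGs with at least 5 reads in both libraries within the span of each pair and 2 kb either side were taken. This gave 2648 of 6745376 cytosines of the whole table, or 0.0393%. Trappc9, which spans 471619 bp, held 1531 of them, Herc3 380, Commd1 375, H13 253 and Blcap 109.

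The assay was RRBS (reduced-representation bisulfite sequencing), in which restriction fragments are sequenced after bisulfite has converted unmethylated cytosines. The cells came from testes at postnatal day 6 of LT-11B6 mice, which carry an Id4-eGfp transgene on a C57BL/6 background, so the EGFP reporter was shared by both groups. EGFP-positive cells were sorted by antibody staining for the tetraspanin TSPAN8 into TSPAN8-high cells, the most strongly stained, and TSPAN8-low cells, the most weakly stained of the positive cells. Each fraction gave 1 library, from the cells of 5 sorts. There is therefore no error between replicates, and every test below compares the 2 libraries, not the conditions. The animals are of a single inbred background, and the 2 parental alleles cannot be told apart in these values.

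Imprinted genes are expressed from the allele of a single parent. In somatic tissues the promoters of all 5 nested genes are known to be methylated on the maternal allele and the genes to be transcribed from the paternal one. The maternal mark is set in the oocyte. In the male germ line such marks are erased in primordial germ cells and are not set again, whereas a small number of other loci gain methylation there. Mcts2, Nap1l5 and Zrsr1 are retrogenes, copies of processed messenger RNAs, that sit in introns of their hosts. Peg13 is a long noncoding RNA, and Nnat encodes neuronatin, a small membrane protein.

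The stretches just upstream of annotated starts show what was read. They are the 250 bases before the RefSeq start, written 5′ to 3′ along the gene (RefSeq, GRCm38.p6). The CpGs in capitals are those with a measured cytosine in both libraries. Mcts2 lies at chr2:152686898-152687147 on the plus strand, Zrsr1 at chr11:22971755-22972004 on the plus strand, and the only RefSeq start listed for the host Herc3 at chr6:58833450-58833699 on the plus strand. Mcts2 and Zrsr1 are shown as unmethylated nested starts, and Herc3 as a methylated stretch of a host.
Mcts2: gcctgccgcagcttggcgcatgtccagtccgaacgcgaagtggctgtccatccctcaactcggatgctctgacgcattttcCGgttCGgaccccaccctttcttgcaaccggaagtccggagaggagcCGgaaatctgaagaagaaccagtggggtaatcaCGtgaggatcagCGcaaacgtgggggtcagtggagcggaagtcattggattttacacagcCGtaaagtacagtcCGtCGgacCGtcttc
Zrsr1: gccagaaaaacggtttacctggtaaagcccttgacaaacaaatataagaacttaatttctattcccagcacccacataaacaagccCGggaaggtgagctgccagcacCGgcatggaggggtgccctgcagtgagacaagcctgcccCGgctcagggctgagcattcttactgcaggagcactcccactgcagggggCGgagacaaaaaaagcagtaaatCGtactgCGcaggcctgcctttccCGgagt
Herc3: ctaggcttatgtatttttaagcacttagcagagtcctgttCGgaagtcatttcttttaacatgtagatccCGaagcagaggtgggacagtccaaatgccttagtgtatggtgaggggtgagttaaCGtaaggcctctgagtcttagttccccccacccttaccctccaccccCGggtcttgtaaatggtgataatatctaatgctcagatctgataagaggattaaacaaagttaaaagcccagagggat
In the Mcts2 stretch 9 of 20 CpGs were measured, with 2 of 214 reads methylated in TSPAN8-high, against 7 of 244 in TSPAN8-low. In the Zrsr1 stretch 7 of 8 CpGs were measured, with 6 of 126 reads methylated in TSPAN8-high, against 1 of 153 in TSPAN8-low. All 4 CpGs of the Herc3 stretch were measured, and 72 of 74 reads were methylated in TSPAN8-high, against 75 of 76 in TSPAN8-low. Each of these nested stretches was thus nearly free of methylation and the Herc3 stretch nearly full in both libraries. Herc3 does not stand for the hosts, since the stretches before other host starts were nearly free of methylation too. Methylated reads were 3 of 134 at H13, 0 of 275 at Commd1 and 0 of 98 at Blcap in TSPAN8-high. In TSPAN8-low they were 2 of 179, 1 of 259 and 0 of 95.

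The measured cytosines around the CpG-rich start of every nested gene were nearly unmethylated in both libraries. Within 1 kb either side of the Nnat start, at chromosome 2, position 157560078, 3 of 379 reads were methylated in TSPAN8-high, or 0.792% (95% exact interval 0.164 to 2.30), and 2 of 403 in TSPAN8-low, or 0.496% (0.0602 to 1.78). At Zrsr1, which encodes a splicing factor related to U2AF1 and starts at chromosome 11, position 22972005, the level was 0.993% of 1611 reads in TSPAN8-high (0.569 to 1.61) and 0.762% of 1443 in TSPAN8-low (0.381 to 1.36). At Nap1l5, a gene of the nucleosome assembly protein family at chromosome 6, position 58907126, it was 1.79% of 391 reads in TSPAN8-high (0.723 to 3.65) and 4.79% of 313 in TSPAN8-low (2.71 to 7.78). These genes share a level below 5% in each library with all CpGs at 5 or more reads. Nap1l5 did not stay below it in TSPAN8-low. At 10 or more reads, with 1 CpG left, it had 7.41% of 54 reads there, against 0 of 34 in TSPAN8-high. With 1 CpG kept per 100 bp it had 9.32% of 118 reads in TSPAN8-low, against 4.85% of 103 in TSPAN8-high. At Mcts2, a copy of the translation factor gene Mcts1 at chromosome 2, position 152687148, the level was 1.87% of 482 reads in TSPAN8-high (0.857 to 3.51) and 1.97% of 557 in TSPAN8-low (0.990 to 3.51). At the CpG-richer end of Peg13, chromosome 15, position 72810324, it was 4.03% of 596 reads in TSPAN8-high (2.60 to 5.93) and 0.945% of 529 in TSPAN8-low (0.308 to 2.19). In the order of levels, Nnat and Zrsr1 were lowest in both libraries, Peg13 was highest in TSPAN8-high and Nap1l5 highest in TSPAN8-low. The exact intervals of neighbours in that order overlapped in both libraries. The intervals cover counting error only. None of the 12 CpGs in the 250 bases before the Nnat start was measured in both libraries. The nearest cytosine with a mean below 20% over both libraries lay 196 bp from the Nnat start. It lay 201 bp from that of Peg13 and 248 bp from that of Nap1l5.

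Low levels held for single cytosines as well. Around the starts, all 41 cytosines at Mcts2, all 91 at Zrsr1 and all 31 at Nnat were below 20% in both libraries. At Nap1l5, 39 of 41 cytosines were below 20% in TSPAN8-high, against 38 in TSPAN8-low, and at Peg13 51 of 52 in TSPAN8-high, against 52 in TSPAN8-low. None of the 5 start windows held a cytosine above 80%. No methylated read was found at 79 of the 91 Zrsr1 cytosines in TSPAN8-high, against 83 in TSPAN8-low. At Peg13 the cytosines with no methylated read were 31 of 52 in TSPAN8-high, against 47 in TSPAN8-low.

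An unmethylated start is common among genes. Of 17885 gene starts with at least 5 CpGs in this window, 74.1% were below 20% in both libraries, so 5 of 5 nested starts is not far from that background. Start windows of other imprinted genes known to be maternally methylated were mostly low too. Of 11 measured, 10 were below 20% in both libraries, with Peg10 lowest in TSPAN8-high, at 0.290%, against 0.446% in TSPAN8-low. Whether each window covers the region that carries the maternal mark was not checked, so a low level need not describe that region. Impact was the exception among the 11, with 95.5% in TSPAN8-high, against 93.6% in TSPAN8-low, over 6 CpGs at the CpG-richer end of its span. No RefSeq start was listed for Impact, so this end may not be its start and its promoter may not have been read. The windows of Peg10 and of H19, given next, were placed in the same way. The starts of the paternally methylated loci H19, Meg3 and Rasgrf1 were also below 20% in both libraries, from 0.357% at Rasgrf1 to 9.29% at Meg3 in TSPAN8-high and from 0.898% to 8.23% at the same genes in TSPAN8-low. Regions upstream of these genes, added after values were seen, were highly methylated. The region 1 to 5 kb upstream of H19 was at 98.4% in TSPAN8-high, against 97.1% in TSPAN8-low. The region 10 to 16 kb upstream of Meg3 had 95.4% in TSPAN8-high, against 97.2% in TSPAN8-low. That 25 to 35 kb upstream of Rasgrf1 had 82.1% in TSPAN8-high, against 80.2% in TSPAN8-low. Such levels are not particular to these regions. The median window of 5386 nested genes, described below, was at 94.2% in TSPAN8-high, against 94.4% in TSPAN8-low, and the Rasgrf1 region lay below that. Among 10 germline genes whose promoters are known to be methylated in most somatic cells, 9 were measured with at least 5 CpGs. All 9 were below 20% in both libraries, from 0.568% at Taf7l to 12.3% at Tex101 in TSPAN8-high and from 1.25% to 15.6% at the same genes in TSPAN8-low. Stk31, with 4 CpGs, had 28.6% in TSPAN8-high, against 29.8% in TSPAN8-low.

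At the starts used here the hosts were little methylated, and their bodies were methylated. Each start was the candidate with the most measured CpGs within 1 kb, by a rule added after values were seen. Within 1 kb of its start Blcap, the bladder cancer associated protein gene, was at 2.03% of 837 reads in TSPAN8-high, against 0.541% of 739 in TSPAN8-low. Commd1, a regulator of copper handling and NF-kappa-B, was at 2.70% in TSPAN8-high, against 2.01% in TSPAN8-low. Herc3, which encodes a ubiquitin ligase of the HERC family, was at 1.68% of 357 reads in TSPAN8-high, against 0 of 389 reads in TSPAN8-low, where 3 counts of the total would be 0.771% and the 95% exact upper limit is 0.944%. The 5′ end of the Herc3 span, 58831455, was used here, since it had more measured CpGs than the RefSeq start printed above. The stretch before that RefSeq start had 72 of 74 reads methylated in TSPAN8-high, against 75 of 76 in TSPAN8-low. The low level at Herc3 therefore depends on the start chosen. Trappc9, a subunit of the TRAPPII trafficking complex, was at 7.90% in TSPAN8-high, against 5.80% in TSPAN8-low. H13, which encodes signal peptide peptidase, had 8.91% in TSPAN8-high, against 11.6% in TSPAN8-low. At 10 or more reads H13 had 3.52% in TSPAN8-high, against 4.04% in TSPAN8-low, below Trappc9 with 9.73% in TSPAN8-high, against 7.35% in TSPAN8-low. With 1 CpG kept per 100 bp Trappc9 had 2.40% in TSPAN8-high, against 3.70% in TSPAN8-low. Away from these starts and from the nested windows, H13 was at 94.7% in TSPAN8-high, against 94.8% in TSPAN8-low. Herc3 had 92.7% there in TSPAN8-high, against 93.2% in TSPAN8-low, Commd1 had 95% in TSPAN8-high, against 95.4% in TSPAN8-low, and Trappc9 had 95% in TSPAN8-high, against 95.5% in TSPAN8-low. Only 12 cytosines of Blcap lay in that zone, at 60.8% of 130 reads in TSPAN8-high, against 59.3% of 135 in TSPAN8-low.

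**Figure D1:**
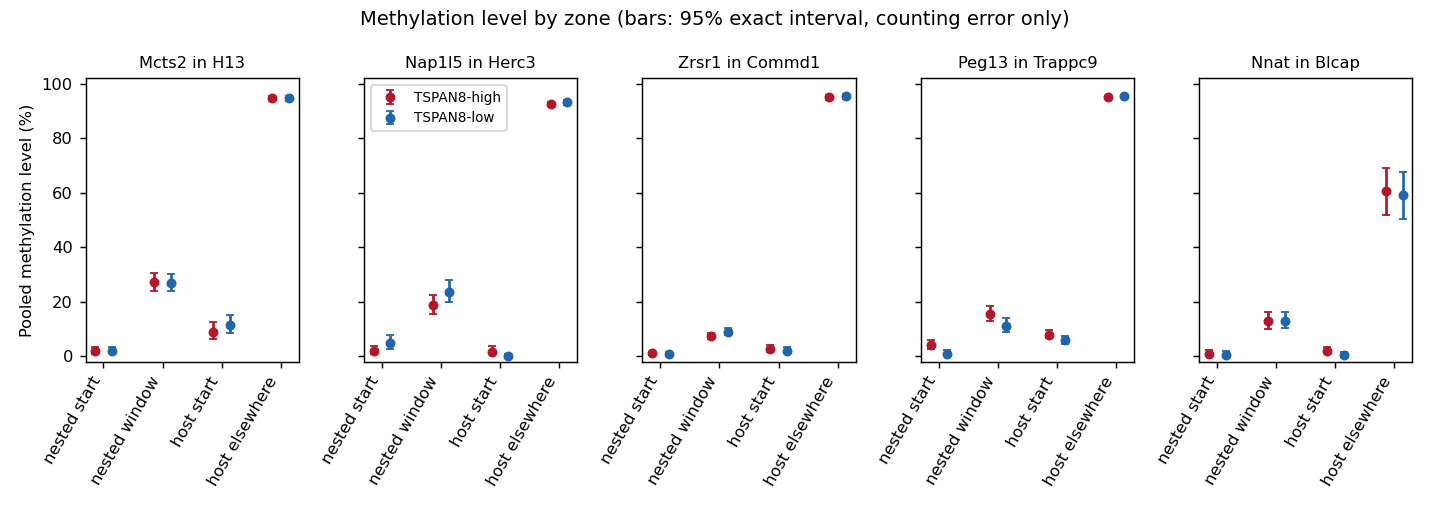
Pooled methylation level in percent of reads for each pair in 4 zones: within 1 kb of the nested start, the nested gene span and 2 kb either side, within 1 kb of the host start, and the host elsewhere. Points are the 2 libraries and bars the 95% exact interval; all starts lie below 20% and host bodies at 92.7% or more, except Blcap at 60.8% in TSPAN8-high, against 59.3% in TSPAN8-low.

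Set against the rest of the host, 4 of 5 nested windows were lower by at least 50 percentage points in both libraries. Here the nested window is the gene span and 2 kb either side, and the rest is everything else in the host span and 2 kb either side. The Peg13 window was at 15.5% in TSPAN8-high, against 87.9% in the rest of Trappc9, and at 11.1% against 89.3% in TSPAN8-low. The difference was -72.4 percentage points in TSPAN8-high, against -78.2 in TSPAN8-low. The Zrsr1 window was at 7.39% against 74.2% in the rest of Commd1 in TSPAN8-high, and at 8.83% against 75.7% in TSPAN8-low. The Nap1l5 window was at 18.7% against 84.8% in the rest of Herc3 in TSPAN8-high, and at 23.7% against 84.1% in TSPAN8-low. The Mcts2 window was at 27.2% against 83.1% in the rest of H13 in TSPAN8-high, and at 26.8% against 82.5% in TSPAN8-low. Nnat was the exception, at 12.8% against 9.93% in the rest of Blcap in TSPAN8-high and at 13% against 9.61% in TSPAN8-low. Of the 66 cytosines measured in the rest of Blcap, 54 lay within 1 kb of its own unmethylated start. The count of 4 pairs fell to 2, both at 20 or more reads per cytosine and with 1 CpG kept per 100 bp. The window levels moved by over 1.5 times with the zone and the filter. The Mcts2 gene span alone was at 4.32% in TSPAN8-high, against 2.99% in TSPAN8-low, and its window with 1 CpG kept per 100 bp had 46.2% in TSPAN8-high, against 39.6% in TSPAN8-low. With 1 CpG kept per 100 bp the Zrsr1 window had 22.7% in TSPAN8-high, against 23.6% in TSPAN8-low. At 10 or more reads the Nap1l5 window had 39.2% in TSPAN8-high, against 33.3% in TSPAN8-low, and the Peg13 window 3.31% in TSPAN8-high, against 0.358% in TSPAN8-low. Other zones were set against each other after seeing the data. With only the 1 kb either side of the nested start against the rest of the host, 4 pairs passed, and Nnat differed by -9.14 percentage points in TSPAN8-high, against -9.11 in TSPAN8-low. With the nested window against the host away from its start, Nnat differed by -47.9 in TSPAN8-high, against -46.3 in TSPAN8-low, short of 50. With both changes together all 5 pairs passed, and Nnat differed by -59.98 in TSPAN8-high, against -58.8 in TSPAN8-low.

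Low windows of this kind were uncommon among nested genes. Of all annotated genes, 5386 lay inside a protein-coding gene and had at least 10 measured cytosines both in their window and in the rest of the host. Of these, 8.0% were lower by at least 50 percentage points in both libraries. Their median window was at 94.2% in TSPAN8-high, against 94.4% in TSPAN8-low, with the rest of the host at 76.6% in TSPAN8-high, against 77.4% in TSPAN8-low. Among the 1378 whose window lay over 1 kb inside both host ends and held at least 43 cytosines, the number in the smallest imprinted window, the share was 7.91%. The background genes were not chosen for a CpG-rich start, so in that respect they are not matched to the imprinted genes. Of the 1378, 109 passed, and genes outside the list of pairs are among them. Fahd1 in Hagh, for example, was at 4.10% against 94.1% in TSPAN8-high, and at 3.36% against 91.6% in TSPAN8-low. The count of 4 of 5 imprinted pairs is a description beside these shares, without a test, and is not shown to be particular to imprinted genes.

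**Figure D2:**
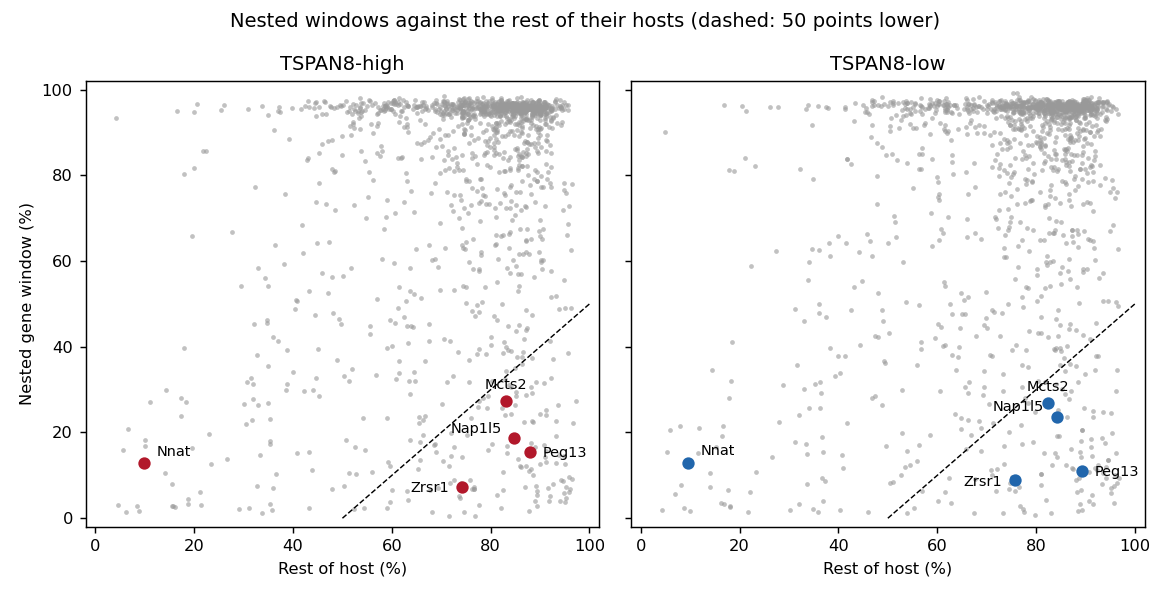
Level of each nested gene window (vertical axis, percent) against the rest of its host (horizontal axis, percent) for 1378 nested genes in grey, TSPAN8-high left and TSPAN8-low right, with the 5 imprinted genes coloured. Below the dashed line the window is at least 50 percentage points lower; Mcts2, Nap1l5, Zrsr1 and Peg13 lie there in both libraries and Nnat does not.

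The unmethylated stretches at the nested starts spanned 671 to 2458 bp between their outermost measured cytosines. A stretch was taken as the run of neighbouring measured cytosines around the start whose mean over both libraries was below 20%. It covered 671 bp at Mcts2, from 152686714 to 152687384 on chromosome 2, with 41 cytosines. It covered 1524 bp at Peg13, from 72809518 to 72811041 on chromosome 15, with 52 cytosines, and 1640 bp at Nap1l5, from 58906059 to 58907698 on chromosome 6, with 42 cytosines. At Nnat it covered 2276 bp, from 157559584 to 157561859 on chromosome 2, with 35 cytosines. The longest of the nested stretches was that of Zrsr1, 2458 bp from 22971660 to 22974117 on chromosome 11, with 112 cytosines. Host stretches ran from 767 bp at Herc3 to 3699 bp at Trappc9. The Herc3 stretch begins at the first measured cytosine of the region taken, so it may be longer.

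By the rule that ends a stretch, the next measured site has a mean of 20% or more over both libraries. At the nested stretches these sites were at 20% or more in each library. Beyond Zrsr1, the next cytosines lay 1176 bp before it, at 86% in TSPAN8-high, against 100% in TSPAN8-low, and 1779 bp after it, at 100% in both. Within the Zrsr1 span, which is 4492 bp long, 3 cytosines were above 80% in TSPAN8-high, against 2 in TSPAN8-low. Beyond Mcts2, the cytosine 752 bp before the stretch was intermediate, at 67% of 30 reads in TSPAN8-high, against 58% of 24 in TSPAN8-low, and that 1061 bp after it was at 100% in both. At the Nnat border facing the Blcap start, the cytosine 441 bp beyond the stretch was at 43% of 7 reads in TSPAN8-high, against 20% of 5 in TSPAN8-low. Nap1l5 and Peg13 also had intermediate cytosines at 1 border each. At Nap1l5, 243 bp beyond the stretch on the side away from the gene body, the level was 29% of 7 reads in both libraries. At Peg13, 459 bp before the stretch and inside the gene, it was 57% of 7 reads in TSPAN8-high, against 33% of 9 in TSPAN8-low. Where a border falls between measured cytosines cannot be told.

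**Figure D3:**
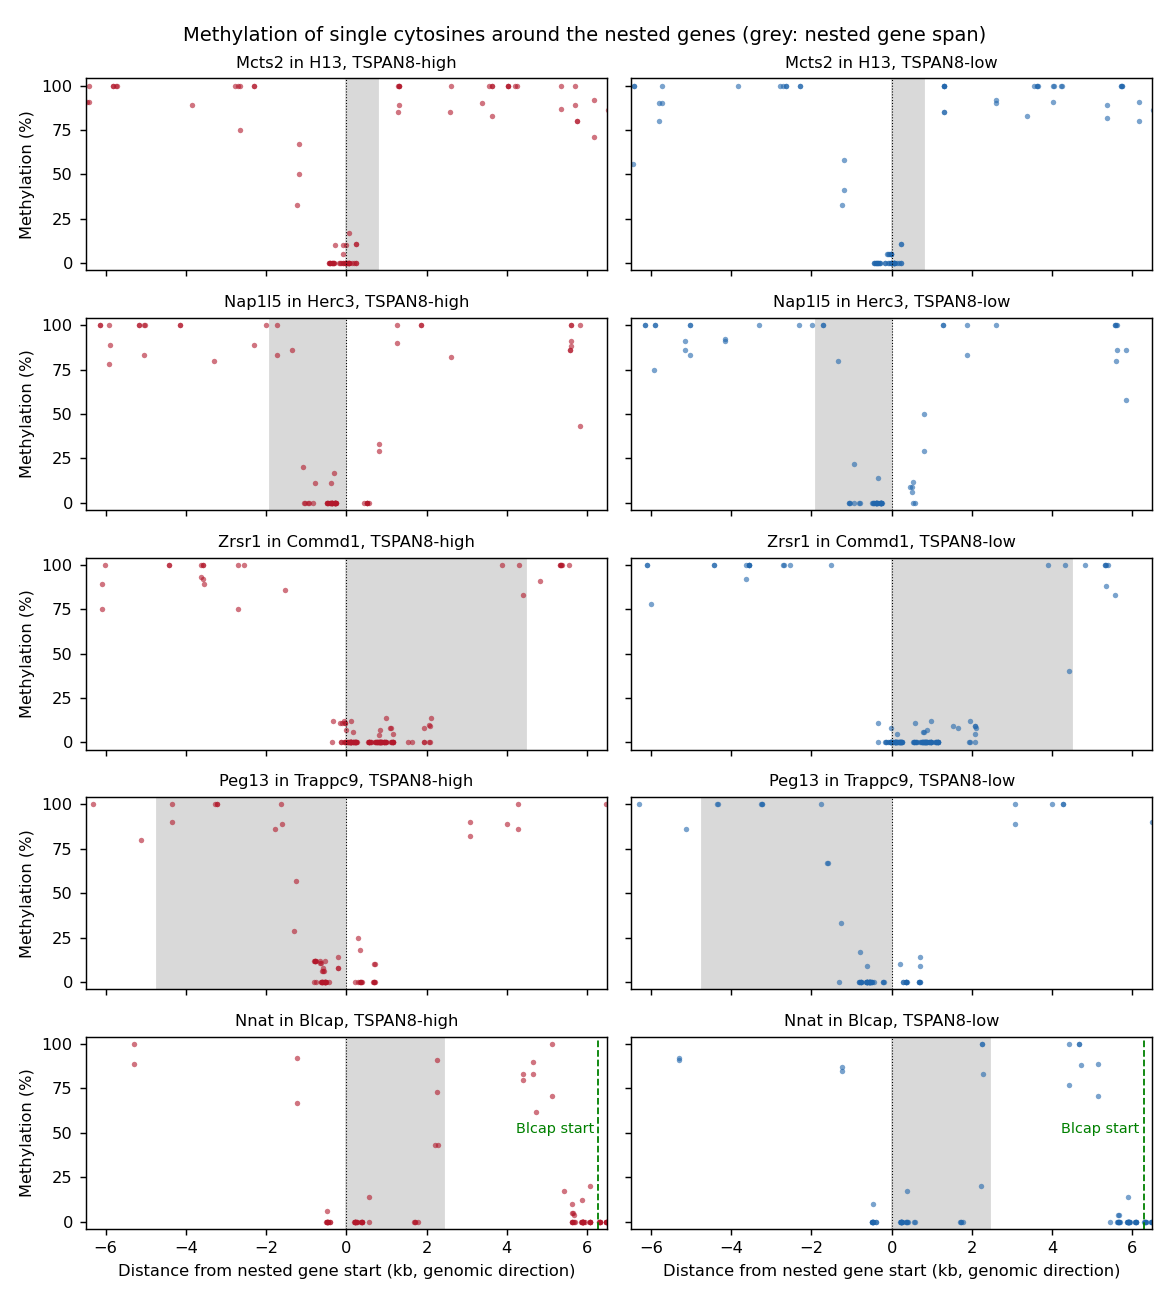
Methylation level in percent of every measured cytosine against its distance from the nested gene start in kb, in genomic direction, with TSPAN8-high left and TSPAN8-low right and the nested gene span in grey. In all 5 rows a cluster near 0 surrounds the start; at Nnat a further unmethylated cluster lies at the Blcap start.

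Inside the hosts few other unmethylated stretches were seen. Of the runs with at least 4 CpGs, a single run lay over 2 kb from any start used here. It is in Herc3, from 58880272 to 58880899 on chromosome 6, 26227 bp from the Nap1l5 start, with 4 CpGs at 3.75% of 80 reads in TSPAN8-high, against 3.17% of 63 in TSPAN8-low. RefSeq also lists a second Commd1 start inside the unmethylated Zrsr1 stretch. In the 250 bases before it 9 of 13 CpGs were measured, at 1.78% of 225 reads in TSPAN8-high, against 1.66% of 181 in TSPAN8-low.

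The letters TGCCGC are known as the motif that the imprint-protecting zinc finger protein ZFP57 binds when its CpG is methylated. They were looked for on both strands in the 300 bases from 250 before to 50 after each RefSeq start. They occurred at 11.6% of 27025 genes with such a stretch, and at 22.3% of the 11876 with at least 10 CpGs. Of the 4 nested genes in the table, Nap1l5 held 2, at -24 and 27 from its start, Mcts2 held 1 at -247, Nnat 1 at 27 and Zrsr1 none. Of the host starts listed, Commd1 held 1 at 9 and H13, Herc3 and Blcap held none. The Nap1l5 stretch at chr6:58907127-58907376 on the minus strand, with the motif in capitals, shows the site nearest to a nested start.
Nap1l5: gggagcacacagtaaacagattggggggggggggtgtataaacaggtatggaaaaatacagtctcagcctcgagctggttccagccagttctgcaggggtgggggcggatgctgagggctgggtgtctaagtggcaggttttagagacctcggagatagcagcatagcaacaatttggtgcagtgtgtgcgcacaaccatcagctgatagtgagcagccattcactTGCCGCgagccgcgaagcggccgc
None of the 10 CpGs in these 250 bases was measured in both libraries. A match is a description of the letters and not of binding.

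The comparison of TSPAN8-high with TSPAN8-low asked whether the fractions differ at these loci. No single cytosine and no gene span was called, and 2 tiles in Trappc9 were lower in TSPAN8-high. Of 2648 member cytosines, 0 had an adjusted p below 0.05 and 20 percentage points or more between libraries (Fisher's exact test, Benjamini-Hochberg adjusted over all 6745376), against 0.00111% of the whole table. At an unadjusted p below 0.05 there were 30 member cytosines, or 1.13%, against 1.46% of the whole table. Of the 10 gene spans with 2 kb either side, 0 passed with 10 percentage points or more (Fisher's exact test, adjusted over 41494 genes), against 1.47%. At an unadjusted p below 0.05 there were 3, Trappc9, Commd1 and Peg13, against 23.7% of genes. Trappc9 passed the adjusted threshold without a minimum difference, as did 11.1% of genes. Its span was at 85.2% of 18297 reads in TSPAN8-high, against 86.7% of 18640 in TSPAN8-low, which differ by -1.59 percentage points (95% Newcombe interval -2.30 to -0.879; Fisher's exact test, adjusted p = 0.000515).

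Of 249 tiles of 1 kb touching the members, 2 were called, against 0.268% of 584828 tiles. Both lie inside Trappc9 and outside the Peg13 window. The tile from 72705001 to 72706000 on chromosome 15 was at 86.4% of 88 reads in TSPAN8-high, against 100% of 91 in TSPAN8-low (difference -13.6 percentage points, Newcombe interval -22.3 to -6.68; Fisher's exact test, adjusted p = 0.0418). It holds 4 CpGs, of which 2 were lower in TSPAN8-high, with 40 of 50 reads methylated at 1 and 8 of 10 at the other. The tile from 72934001 to 72935000, named after its values were seen, was at 86.7% of 158 reads in TSPAN8-high, against 97.6% of 209 in TSPAN8-low (difference -10.9, Newcombe interval -17.2 to -5.50; Fisher's exact test, adjusted p = 0.0268), and 6 of its 7 CpGs were lower in TSPAN8-high. These 7 CpGs lie from 72934120 to 72934226, so the same reads can be counted at several of them and they are not independent. At 10 or more reads only the tile at 72934001 was called, and with 1 CpG kept per 100 bp neither was.

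In the other pairs no tile was called. Those with the lowest p were a Herc3 tile at 91.3% in TSPAN8-high, against 98.6% in TSPAN8-low (adjusted p = 0.310), the Blcap start tile at 2.45% in TSPAN8-high, against 0 of 230 reads in TSPAN8-low (adjusted p = 0.454), a tile upstream of the Commd1 span at 97.8% in TSPAN8-high, against 85.0% in TSPAN8-low (adjusted p = 0.572), and an H13 tile at 96.7% in TSPAN8-high, against 100% in TSPAN8-low (adjusted p = 0.606), all by Fisher's exact test. The single cytosine with the lowest p in any pair lay in Trappc9 at 72917719, with 33% of 6 reads in TSPAN8-high, against 100% of 20 in TSPAN8-low (p = 0.00100, adjusted p = 1, Fisher's exact test).

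At the starts the differences were small. Peg13 was higher in TSPAN8-high, by 3.08 percentage points (95% Newcombe interval 1.28 to 5.05; Fisher's exact test, adjusted p = 0.0337 over 17885 gene starts), and it alone of the 10 starts passed at any size of difference, as did 4.0% of all starts. The methylated reads were 24 of 596 in TSPAN8-high, at 21 of 52 cytosines, and 5 of 529 in TSPAN8-low, at 5 cytosines. At 10 or more reads Peg13 was at 3.31% in TSPAN8-high, against 0.358% in TSPAN8-low, and with 1 CpG kept per 100 bp it was 4.49% in TSPAN8-high, against 1.36% in TSPAN8-low. It did not pass in either setting (adjusted p = 0.142 and 0.852, Fisher's exact test). None of the 10 starts reached a difference of 10 percentage points with an adjusted p below 0.05, which 0.671% of all starts did. Nap1l5 differed by -3.0 percentage points (Newcombe interval -6.10 to -0.368; Fisher's exact test, adjusted p = 0.229). Mcts2, Zrsr1 and Nnat differed by -0.108, 0.231 and 0.295 percentage points, with intervals that hold 0. Of the 10 members 5 had a Newcombe interval that leaves out 0, against 17.7% of all starts. Peg13, Blcap (0.356 to 2.73), Herc3 (0.346 to 3.62) and Trappc9 (0.168 to 4.01) were higher in TSPAN8-high, and Nap1l5 was lower. At 10 or more reads the intervals of Peg13 (0.726 to 5.64), Blcap (0.598 to 3.91) and Herc3 (0.344 to 7.04) still left out 0, and the others held it. All 10 intervals held 0 with 1 CpG kept per 100 bp.

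**Figure D4:**
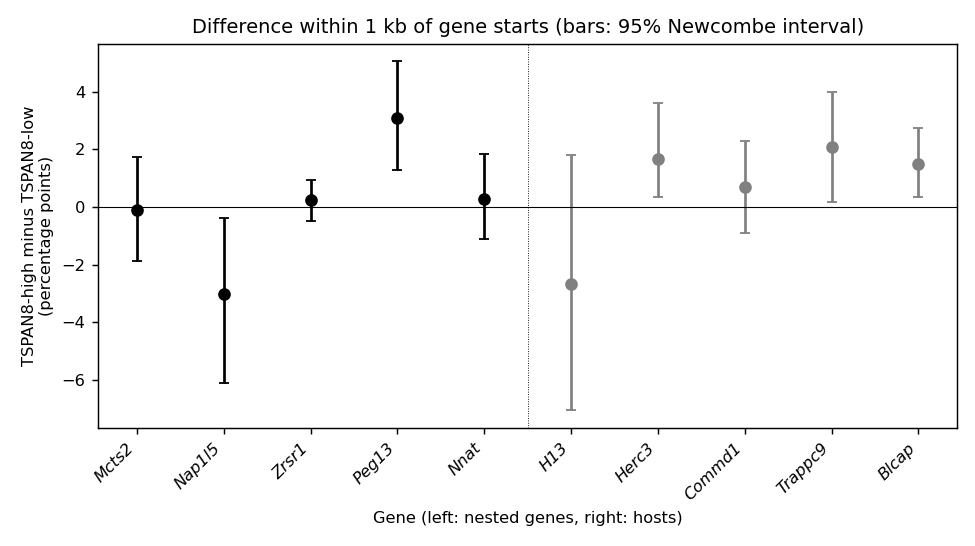
Difference in methylation, TSPAN8-high minus TSPAN8-low in percentage points, within 1 kb of the start of each nested gene (black, left) and each host (grey, right). Bars are 95% Newcombe intervals, which count a read at each CpG it covers; Peg13 is highest at 3.08 and Nap1l5 lowest at -3.0.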

How the data were processed

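RRBS libraries of the 2 fractions were made from 300 ng of DNA with paired reads of 50 bp, per the labels. The authors deposited 1 table of cytosines. Its levels were deposited as a fraction of reads methylated, to 2 decimals, and its coverage was deposited as a read count of 5 or more per library. The deposited difference column (unit other) and the authors' p-values were not used here. Bowtie, SICER, mm9 and mm10 stand in the submitters' processing notes without roles; which aligner and caller made this table is not given in the sources used here. All 232506 listed cytosines in RefSeq promoter stretches of GRCm38.p6 (mm10) fell on the matching base, so mm10 positions were used. The 8 chromatin samples were not analysed here.

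Median coverage of member cytosines was 10 reads in each library, summing to 33162 in TSPAN8-high, against 33365 in TSPAN8-low, as in the whole table (median 10 and 10). Methylated reads were level times coverage, rounded, and were pooled over cytosines. The start of a gene was the RefSeq start, or the 5′ end of its span, with the most measured CpGs within 1 kb, and for hosts outside the nested window; Peg13 and Trappc9 took the CpG-richer end. Cytosines, tiles with at least 3 CpGs, and gene spans and start windows with at least 5 were each tested over the whole table (Fisher's exact test, two-sided, Benjamini-Hochberg threshold 0.05). A read is counted at each CpG it covers and has no molecular identifier, so p-values are too small, and intervals too narrow, and cover counting error only. Zones of a gene were not tested against each other. The scripts used Python 3.11.15 and SciPy 1.17.1, and the tests were checked on simulated data.

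The members are always named; per pair, the called tile and cytosine with the largest difference, or else the lowest p, were named, and of the listed imprinted genes the lowest and highest. Members and lists were chosen with earlier results of these data known. The rule for choosing among starts, the test of start windows and the upstream control regions were added after values were seen. Alternatives were at least 10 or 20 reads, unweighted means, narrower nested windows, 1 CpG kept per 100 bp, and other minimum differences.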

Additional observations from a re-analysis of the deposited data

How the results depend on the processing

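The count of pairs with a nested window at least 50 percentage points below the rest of the host was 4 with unweighted means, with narrower nested windows and at a minimum of 30 percentage points. At 10 or more reads it was 3, since Nap1l5 differed by -46.8 in TSPAN8-high. It was 2 at 20 or more reads, where Peg13 and Nnat had no measured cytosine in the window and the Mcts2 window was 74.1% methylated in TSPAN8-high, against 66.7% in TSPAN8-low; the cause was not tested. It was also 2 with 1 CpG kept per 100 bp, where Mcts2 differed by -39.2 in TSPAN8-high, against -44.4 in TSPAN8-low, and Nap1l5 by -43.4 in TSPAN8-high, against -43.7 in TSPAN8-low. Nnat against the rest of Blcap changed direction among these settings, and was -5.07 in TSPAN8-high with 1 kb either side of the gene. Of the 249 tiles, the 2 called at 5 or more reads became 1 at 10 or more, that at 72934001, and 0 at 20 or more, where 7 tiles were tested, and 0 with 1 CpG kept per 100 bp. Called gene spans were 0 in each setting and 1, Trappc9, with no minimum difference. At the starts the difference changed sign for Zrsr1 at 10 or more reads (-0.110) and, with 1 CpG kept per 100 bp, for Commd1 (-0.128) and Trappc9 (-1.31). No paired analysis was possible because each fraction has 1 library. Depth limits the single cytosines, whose median coverage was 10 reads in each library.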
